A study of Mus musculus with 61 samples.

Results

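The OBOX genes (oocyte-specific homeobox) encode homeodomain proteins of the paired-like class, and 7 of them, Obox1, Obox2, Obox3, Obox5, Obox6, Obox7 and Obox8, were followed by their gene symbols. All 7 were found among the 24551 genes used from a table of mouse oocytes and embryos and among the 22911 genes of a table of embryos with Klf17 genotype labels. In these libraries the family split by timing. RNA of Obox1, Obox2, Obox5 and Obox7 was abundant in the oocyte and nearly gone by 48-54 hours post insemination (hpi), whereas RNA of Obox3, Obox6 and Obox8 was near 0 in the oocyte and rose and fell in the embryo at different times. In the libraries labelled Klf17 KO, Obox6 and Obox8 were lower than in controls, by 3.05-fold and 4.32-fold.

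As background, a fertilised mouse egg first lives on RNA that the oocyte stored, and it degrades this RNA while its own genome is switched on in the zygote and the 2-cell embryo. OBOX proteins are transcription factors that bind DNA through the homeodomain. Mouse Obox genes form a large tandem cluster, and their maternal and embryonic products are known to overlap in function during activation of the embryonic genome. KLF17, whose alleles the genotype labels name, is a zinc-finger transcription factor of the Kruppel-like family with abundant RNA in oocytes and early embryos.

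The members lie on chromosome 7 of the GRCm38 build, in gene models that span 1.51 Mb. In order they are Obox8 (14331436 to 14333557, minus strand), Obox7 (14659496 to 14665996, plus), Obox2 (15388721 to 15398545, plus), Obox1 (15388948 to 15556866, plus), Obox3 (15479825 to 15639902, minus), Obox5 (15750131 to 15759800, plus) and Obox6 (15833241 to 15839678, minus). In these models Obox1 overlaps Obox2 and Obox3. The models were deposited with a further set of libraries that enters no comparison here. Gene lengths given with the counts analysed below were shorter for some members. Obox1 had 1512 against 1900 bases, Obox2 1459 against 1646 and Obox3 2287 against 3191. Obox5 and Obox7 differed as well, and Obox6 and Obox8 did not. Whether the overlap holds for the analysed counts was not tested. RefSeq positions for this build do not overlap, with Obox1 at 15547257 to 15556846, Obox2 at 15388851 to 15398545 and Obox3 at 15625306 to 15639777. The RefSeq gene table for this build listed 6 of the members, all but Obox8, among 53 genes from the first of them to the last. Of these 53, 47 carry Obox symbols, namely the 6 members and 41 pseudogenes. Members and pseudogenes are near-identical copies in part, and the strand counted is not given in the sources used here, so the split of reads between single members is uncertain. The sum over the members is therefore given beside them.

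Promoter sequences of 5 members were matched by symbol in the RefSeq table of build GRCm38.p6, each running from 250 bases before the annotated start to 50 bases after it. Obox6 and Obox8 had no entry. They are shown because members with unlike time courses hold long identical stretches: Obox1 and Obox5 stand for the genes with RNA in the oocyte, and Obox3 for those with RNA mainly in the embryo. The first run in capitals is a stretch of 25 bases that all 5 promoters share, and the second a stretch of 42 bases that Obox1, Obox3, Obox5 and Obox7 share. The stretches shown are chr7:15547007-15547306 on the plus strand for Obox1, chr7:15750120-15750419 on the plus strand for Obox5 and chr7:15639728-15640027 on the minus strand for Obox3.
Obox1: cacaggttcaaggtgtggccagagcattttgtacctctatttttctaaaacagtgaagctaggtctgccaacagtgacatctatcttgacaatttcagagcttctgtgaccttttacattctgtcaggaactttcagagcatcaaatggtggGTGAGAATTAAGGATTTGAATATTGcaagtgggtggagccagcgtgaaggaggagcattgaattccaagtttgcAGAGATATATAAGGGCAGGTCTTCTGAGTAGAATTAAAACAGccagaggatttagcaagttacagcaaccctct
Obox5: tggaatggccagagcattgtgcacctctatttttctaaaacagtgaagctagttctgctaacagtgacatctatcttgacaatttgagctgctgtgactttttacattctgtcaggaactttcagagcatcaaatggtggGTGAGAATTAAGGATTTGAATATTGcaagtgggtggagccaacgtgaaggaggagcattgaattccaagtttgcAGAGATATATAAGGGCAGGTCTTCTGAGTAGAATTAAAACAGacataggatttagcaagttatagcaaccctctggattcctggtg
Obox3: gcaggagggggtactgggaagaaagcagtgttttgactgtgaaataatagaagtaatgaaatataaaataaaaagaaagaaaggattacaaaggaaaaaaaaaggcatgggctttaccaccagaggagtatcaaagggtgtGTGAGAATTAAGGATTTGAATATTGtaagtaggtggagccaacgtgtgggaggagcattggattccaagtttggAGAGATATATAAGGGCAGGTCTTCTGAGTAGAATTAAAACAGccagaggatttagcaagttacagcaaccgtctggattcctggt
Of 32851 promoters in the table, the 25-base run was in 5 and the 42-base run in 4, and in each case these were Obox promoters alone. With the start base as position 0, the shorter run began at -98 in Obox1, -1 in Obox2, -109 in Obox3, -110 in Obox5 and -84 in Obox7. The annotated start of Obox2 thus lay at the shared run itself, and its window did not reach the longer one. Pairs were aligned locally, so identity covers only the best-matching stretch and not the full 300 bases of each promoter. It ran from 88.1% over 67 columns (Obox2 with Obox3) to 100% over 203 columns (Obox1 with Obox2). Obox1 and Obox3, whose RNA was high in different windows, were identical at 153 of 164 aligned columns, or 93.3%.

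Motifs were searched on both strands. The letters TATAAG, which match the core of a TATA box and lie inside the 42-base run, were at -17 in Obox1, -28 in Obox3, -29 in Obox5 and -3 in Obox7, and 7.4% of all promoters hold it. TAATCC, the core bound by paired-like homeodomains such as those of OTX and CRX, matched on the other strand of Obox3 alone, at -168, and 7.1% of all promoters hold it. CACCC, a core that Kruppel-like factors bind, matched on the other strand at 2 places in Obox1, Obox2, Obox5 and Obox7 and at 1 in Obox3, against 57.5% of all promoters with at least 1. The longer Kruppel-like pattern CCNCNCCC, which can overlap CACCC, matched none of the 5 and is held by 49.5% of all promoters.

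Polyadenylated RNA was measured by SLAM-seq: embryos take up 4-thiouridine (4SU), cells build it into nascent transcripts, and iodoacetamide then marks it so that it reads as a T-to-C change. MII oocytes and in vitro fertilised embryos in 9 windows of 6 h labelling (0-6, 6-12, 12-18, 18-24, 24-30, 30-36, 48-54, 70-76 and 90-96 hpi), all wild type and 4SU-labelled, gave 30 libraries, 3 per group, each pooling 10 embryos per the series' design; in the 0-6hpi window the sperm and the cumulus-oocyte complexes were also in 4SU. Embryos of the stage labelled M2C gave 11 further libraries: 3 of wild-type controls (ctrl), 3 labelled Klf17 KO, 3 labelled Klf17 maternal KO (mKO) and 2 labelled Klf17 paternal KO (pKO), all with 4SU. The altered part of Klf17, the strain and the parents' genotypes are not given in the sources used here.

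Total gene counts ran from 7395193 to 13301570 per library in the windows and from 14080264 to 23018252 in the genotypes. Levels are CPM, gene counts scaled to a common library size with TMM factors, and so a share of each library rather than copies per embryo, so fewer RNA molecules of a gene and more of all others cannot be told apart, nor can fewer embryos with the RNA and less RNA per embryo. The sources used here do not say if reads with and without T-to-C changes were counted together, so a level may include RNA made before labelling. Markers followed the labels: the summed level of 5 oocyte markers fell from between 8050 and 8380 CPM in MII to between 1.22 and 46.3 at 90-96hpi, that of 4 markers of the 2-cell embryo was highest at 18-24hpi (1300 to 1560 CPM), and that of 5 blastocyst markers at 90-96hpi (4720 to 8300 CPM). The 7 cumulus-cell markers summed to at most 43.6 CPM and the 4 sperm markers to at most 6.94 CPM in any window library. Klf17 did not check the KO label, since it measured 716 CPM in ctrl and 668 CPM in KO on average (log2 of the fold change, here the log2 change, -0.10, adjusted p = 0.869), and directions below are those of the libraries so labelled.

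Obox2 had the highest level of the family in the oocyte. Its MII libraries measured 1866, 1970 and 2019 CPM, and those at 0-6hpi 952, 1010 and 1122. At 12-18hpi they measured 462, 592 and 683 CPM. All libraries of the later groups lay below all those of MII, and from MII to 30-36hpi the group ranges of Obox2 did not overlap between any neighbouring windows. Over the longer span, from MII to 12-18hpi, Obox2 fell (log2 change -1.75, SE 0.42, adjusted p = 0.00181).

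Obox1 measured 1127, 1174 and 1187 CPM in MII and 768, 777 and 898 CPM at 0-6hpi. At 12-18hpi it was at 842, 964 and 965 CPM, and at 18-24hpi at 746, 774 and 905. These ranges overlapped, and all lay under that of MII. Obox1 was not called over the span from MII to 12-18hpi (log2 change -0.33, SE 0.39, adjusted p = 0.525).

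Obox5 had lower values after fertilisation and by 18-24hpi was back in the range of the oocyte. With all groups in the fit, edgeR called none of its steps up to then (MII to 0-6hpi: log2 change -0.49, SE 0.49, adjusted p = 0.544). Its libraries measured 1310, 1390 and 1527 CPM in MII, 916, 985 and 1099 CPM at 0-6hpi and 1391, 1469 and 1570 CPM at 18-24hpi, which held the highest mean of any window for this gene (1477 ± 89.4 CPM, SD, n = 3). The ranges of MII and 18-24hpi overlapped, and those of 0-6hpi lay under both. Obox7, the lowest of these 4 genes, measured 333, 354 and 420 CPM in MII, 219, 224 and 242 CPM at 0-6hpi and 292, 341 and 415 CPM at 12-18hpi. Its oocyte and 12-18hpi ranges overlapped.

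Each step between neighbouring windows was tested with edgeR's quasi-likelihood F-test and Benjamini-Hochberg adjustment over the 16234 genes tested, all 7 members included. From MII to 0-6hpi 1 of 7 members fell and 0 rose, where 21.2% of all genes were called (12.9% up and 8.28% down). The member that fell was Obox7 (log2 change -0.69, SE 0.24, adjusted p = 0.0354), which missed the threshold with total count scaling (adjusted p = 0.112) or without any one of MII replicate 2 or 3 or the 0-6hpi replicates (adjusted p 0.0607 to 0.132). Obox2 had the larger difference (log2 change -0.93, SE 0.41) at an adjusted p of 0.123. Obox1, Obox2 and Obox5 were called lower when genes of low counts were not filtered out (Obox2 adjusted p = 3.88e-08) and when only the 2 groups were fitted (adjusted p = 3.55e-07). From 0-6hpi to 6-12hpi 0 of 7 members were called by edgeR, 0 had an unadjusted p below 0.05 and 0 were called by DESeq2. Of all genes 7.66% were called (4.73% up and 2.93% down), 2915 had an unadjusted p below 0.05 and DESeq2 called 1751. From 6-12hpi to 12-18hpi 1 of 7 rose, which was Obox6, and 0 fell, against 13.2% of all genes called (7.11% up and 6.09% down).

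Starting with the step from 18-24hpi to 24-30hpi, all 4 genes with RNA in the oocyte fell at each of 3 steps in a row. At 18-24hpi Obox2 was already at a mean of 335 CPM, against 1951 in MII. From 18-24hpi to 24-30hpi 4 of 7 members fell and 2 rose, where 45.4% of all genes were called (21% up and 24.4% down). Obox1 went from 746, 774 and 905 CPM to 134, 159 and 196 (log2 change -2.31, SE 0.42, adjusted p = 0.000105). Obox7 went from 213, 240 and 267 CPM to 32.0, 40.6 and 51.7 (log2 change -2.54, SE 0.25, adjusted p = 3.46e-09). These 2 genes had the largest falls of the step within the family, and no library of the later window reached any of the earlier one.

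Obox2 fell over the same step from 308, 334 and 362 CPM to 77.2, 83.8 and 114 (log2 change -1.87, SE 0.43, adjusted p = 0.00116). Obox5 fell from 1391, 1469 and 1570 CPM to 457, 494 and 570 (log2 change -1.54, SE 0.50, adjusted p = 0.016). Obox5 missed the threshold with total count scaling (adjusted p = 0.0719), with DESeq2 (adjusted p = 0.0915) or without any one of the 18-24hpi replicates or 24-30hpi replicate 1 or 3 (adjusted p 0.0512 to 0.123). Its ranges in the 2 windows did not overlap.

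From 24-30hpi to 30-36hpi 5 of 7 members fell and 2 rose, where 49.9% of all genes were called (21% up and 29% down), and from 30-36hpi to 48-54hpi 5 fell and 1 rose, where 62% were called (28.7% up and 33.3% down). At 30-36hpi the libraries measured 31.0, 32.4 and 33.5 CPM for Obox1, 16.2, 25.0 and 32.5 for Obox2, 84.5, 99.2 and 111 for Obox5 and 9.66, 10.7 and 11.2 for Obox7. At 48-54hpi all 4 were at or under 10.2 CPM in every library. From 12-18hpi to 30-36hpi the log2 change was -4.84 for Obox1, -4.56 for Obox2, -3.72 for Obox5 and -5.06 for Obox7, each called (highest adjusted p 3.27e-06, Obox5). Over this span 7 of 7 members were called, 3 up and 4 down, against 74.3% of all genes (33.3% up and 41% down).

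Low levels of these genes remained in the last windows in some libraries. At 90-96hpi Obox5 measured 0.111, 6.83 and 12.6 CPM and Obox1 0, 4.26 and 6.6 CPM, and at 70-76hpi Obox5 measured 0.748, 5.6 and 10.3. Replicate 1 was the lowest library for all 4 genes in both windows. The summed oocyte markers ranged from 1.22 to 46.3 CPM among the 90-96hpi libraries, and their part in this spread was not tested.

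**Figure D1:**
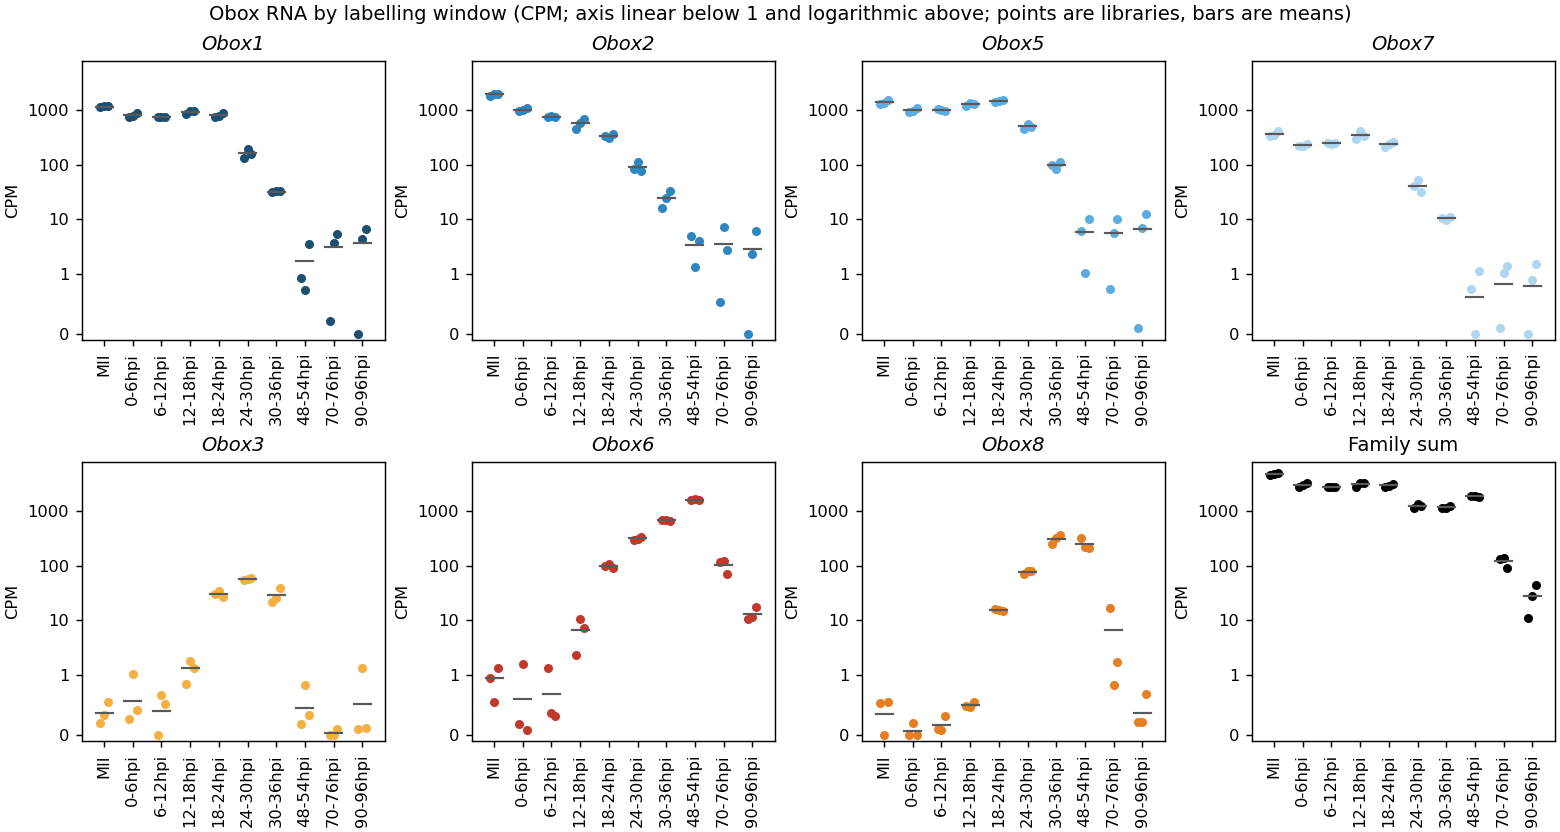
Level of each Obox gene and of their sum in MII oocytes and the 9 labelling windows. Each panel is 1 gene, the horizontal axis gives the group and the vertical axis CPM, linear below 1 and logarithmic above; points are libraries (3 per group) and bars their means. Obox2 declines from MII onwards, Obox1, Obox5 and Obox7 drop after 18-24hpi, and the highest mean of Obox3 is at 24-30hpi (57.6 CPM), of Obox8 at 30-36hpi (310 CPM) and of Obox6 at 48-54hpi (1614 CPM).

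Obox6 rose the furthest in level of the genes with RNA in the embryo. Its MII libraries held 0.55, 0.955 and 1.33 CPM, and those of 0-6hpi 0.0836, 0.181 and 1.55 CPM. At 12-18hpi Obox6 was at 2.29, 7.31 and 10.5 CPM, above every library of the earlier groups, and it rose from 6-12hpi (log2 change 3.30, SE 0.58, adjusted p = 0.000357). It was at 90.9, 97.8 and 109 CPM at 18-24hpi, at 303, 310 and 343 CPM at 24-30hpi and at 677, 681 and 703 CPM at 30-36hpi.

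The highest Obox6 levels were the 48-54hpi values of 1588, 1602 and 1652 CPM. Obox6 was called higher at each of the 5 steps from 6-12hpi to 48-54hpi, by log2 changes of 3.30, 3.89, 1.68, 1.11 and 1.23, with no overlap between neighbouring windows. It fell to 71.4, 118 and 122 CPM at 70-76hpi (log2 change -3.96, SE 0.32, adjusted p = 6.03e-10) and to 10.4, 11.7 and 17.3 CPM at 90-96hpi (log2 change -2.98, SE 0.33, adjusted p = 1.36e-07).

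Obox8 was first called higher 1 window later than Obox6. It was at or under 0.552 CPM in every library up to 12-18hpi, then at 14.6, 15.7 and 16.4 CPM at 18-24hpi (log2 change 4.92, SE 0.83, adjusted p = 7.01e-05). It measured 69.6, 80.2 and 81.1 CPM at 24-30hpi, 248, 318 and 365 CPM at 30-36hpi and 214, 223 and 325 CPM at 48-54hpi. The last pair of ranges overlapped and the step was not called (log2 change -0.29, SE 0.45, adjusted p = 0.596). At 70-76hpi Obox8 fell to 0.84, 1.69 and 17.1 CPM, replicate 1 well above the others (log2 change -5.30, SE 0.57, adjusted p = 1.21e-07).

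Obox3 had the briefest and lowest course. Its libraries held at most 1.79 CPM up to 12-18hpi, then 26.6, 30.3 and 35.2 CPM at 18-24hpi (log2 change 4.53, SE 0.49, adjusted p = 2.64e-09). They held 55.8, 56.7 and 60.4 CPM at 24-30hpi and 22.0, 25.5 and 39.5 CPM at 30-36hpi. The peak window lay above both neighbours without overlap. The rise into it missed the threshold (log2 change 0.91, SE 0.39, adjusted p = 0.0528) and passed it under DESeq2 (adjusted p = 0.0312) and total count scaling (adjusted p = 0.00473), while the fall after it passed (log2 change -0.99, SE 0.39, adjusted p = 0.0317) and was lost without any one of 5 of the 6 libraries (adjusted p 0.065 to 0.123).

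At 48-54hpi Obox3 was back to 0.187, 0.335 and 0.833 CPM (log2 change -5.98, SE 0.56, adjusted p = 1.63e-11). Obox3 was also called higher at 12-18hpi than in MII, at 0.843, 1.31 and 1.79 against 0.212, 0.33 and 0.552 CPM (adjusted p = 0.032, and up to 0.165 with 1 library left out). Its later calls rest on a handful of reads, since 12 of the reads at 90-96hpi were in replicate 2 and the other 2 libraries held 1 each, against 0, 0 and 1 at 70-76hpi. Without 90-96hpi replicate 2 the last step had an adjusted p of 0.536.

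From 12-18hpi to 18-24hpi 3 of 7 members rose and 0 fell, where 33% of all genes were called (18.1% up and 14.9% down). These were Obox3, Obox6 and Obox8. From 48-54hpi to 70-76hpi 0 rose and 3 fell against 43.4% of all genes called (21.6% up and 21.8% down), and from 70-76hpi to 90-96hpi 1 rose and 2 fell against 39.6% (20.1% up and 19.5% down). Over the span from MII to 12-18hpi, with 43.9% of all genes called (27.9% up and 15.9% down), 2 members rose and 1 fell. The median log2 change over the 7 members was -4.06 from 30-36hpi to 48-54hpi, against -0.19 over all genes tested, and -1.90 against -0.22 from 24-30hpi to 30-36hpi. In the first step these medians were -0.69 and 0.03, and from 12-18hpi to 18-24hpi 0.19 and 0.

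Summed over the members, Obox RNA was at 4637, 4888 and 5156 CPM in MII and at 2859, 2994 and 3362 CPM at 0-6hpi. From 0-6hpi to 18-24hpi the group means ran from 2784 to 3154 CPM. The sum was lower, at 1145, 1245 and 1378 CPM, at 24-30hpi and at 1130, 1177 and 1269 CPM at 30-36hpi, whose ranges overlapped. It was higher again at 48-54hpi, at 1835, 1879 and 1925 CPM, then at 93.0, 136 and 141 CPM at 70-76hpi and 10.9, 27.6 and 44.9 at 90-96hpi.

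The sum thus changed little between 24-30hpi and 30-36hpi while its make-up turned over. Obox1, Obox2, Obox5 and Obox7 together went from 716, 761 and 931 CPM to 153, 157 and 187, and Obox3, Obox6 and Obox8 together from 429, 447 and 484 CPM to 973, 1024 and 1081. Per kilobase of gene length, Obox3, Obox6 and Obox8 made up 0.297% ± 0.145 of the family at 12-18hpi, 5.52% ± 0.778 at 18-24hpi, between 37.0% and 43.8% in the libraries of 24-30hpi, and 88.9% ± 0.714 at 30-36hpi (SD, n = 3). At 48-54hpi their share was 99.5% ± 0.341. In 90-96hpi the share was 99.2%, 51.9% and 45.2% in the 3 libraries, at a family sum of at most 44.9 CPM.

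**Figure D2:**
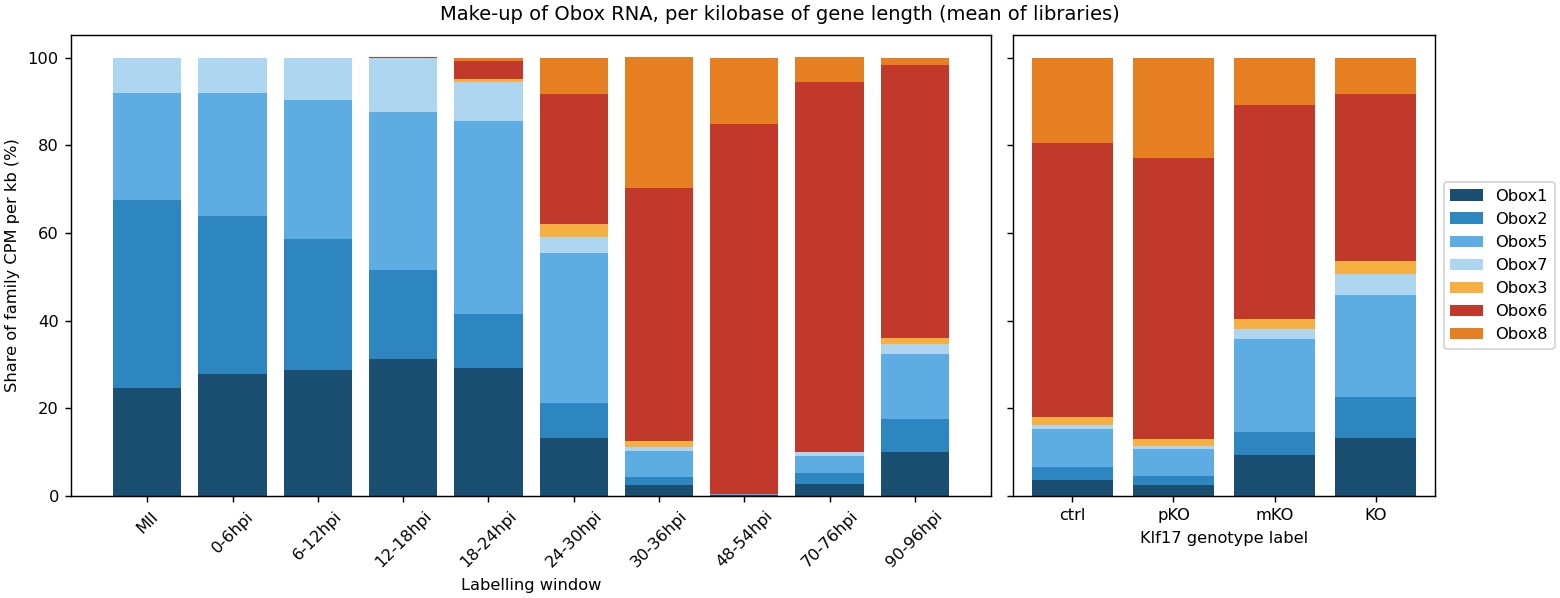
Make-up of Obox RNA in each group. Stacked bars give the mean share (%) of each gene in the family's CPM per kilobase of gene length, by labelling window on the left and by Klf17 genotype label on the right; blue shades are the genes with RNA in the oocyte and red to yellow shades those with RNA mainly in the embryo. The red to yellow share goes from 5.52% at 18-24hpi to 88.9% at 30-36hpi, and is 83.8% in ctrl and 49.4% in KO.

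Compared per kilobase, Obox2 led in MII with 1338 ± 53.7 CPM per kb, Obox1 (769 ± 21.1) and Obox5 (a mean of 770) overlapped, and Obox7 was at 250 ± 30.8. By 18-24hpi Obox5 led with 806 ± 48.8 CPM per kb, ahead of Obox1 at 535 ± 55.9 and Obox2 at 229 ± 18.7. Obox2 made up 42.8% ± 0.625 of the family per kilobase in MII and 12.5% ± 0.766 at 18-24hpi, and Obox5 24.6% ± 0.672 and 44.0% ± 0.631. The ranges of each of these shares did not overlap between the 2 groups. At 48-54hpi Obox6 stood at 1201 ± 25.3 CPM per kb and Obox8 at 217 ± 52.8.

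Across the 10 group means, log2(CPM + 1) of Obox1, Obox2, Obox5 and Obox7 correlated with each other at Pearson's r from 0.96 to 1.0. Obox6 and Obox8 correlated at 0.95, Obox3 with Obox8 at 0.61 and with Obox6 at 0.53. These are descriptions over 10 points that share libraries and depth within a group, and near-identical members may share reads.

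Among 9622 genes with a highest group mean of at least 20 CPM, the course of Obox1 was most like that of Bcl2l10, a BCL2-family protein of oocytes (r = 0.999), then Rfpl4 and Zc3h6. The nearest to Obox5 were Btg4, the adaptor that brings the deadenylase to maternal RNA, Tcl1b1 and Pcdh15. Nlrp4a, Nlrp4b and Rfpl4 were nearest to Obox7, and Hpse, a heparanase, Stard13 and Cobll1 to Obox2. More than r = 0.95 was reached by 1241 genes for Obox1, 906 for Obox2, 1283 for Obox5 and 1205 for Obox7. Such likeness was rarer for the others, with 77 genes for Obox6, 60 for Obox8 and 30 for Obox3. Btbd18 (r = 0.989), Bzw1 and Slc16a6, a monocarboxylate transporter, were nearest to Obox6. Slc27a5 (r = 0.996), Fam212a and Otud6b were nearest to Obox8, and D13Ertd608e (r = 0.995), Gm9117 and Gm21762 to Obox3. For the summed family they were Yipf4 (r = 0.986), Cdc40 and Nin.

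Of the genes next to the cluster, Crxos, a homeobox gene beside Obox6, averaged 5.27 CPM at 12-18hpi, 55.3 at 18-24hpi, 424 at 30-36hpi and 1187 at 48-54hpi, and was still at 1586 CPM at 90-96hpi, where Obox6 averaged 13.1. Crx, between Obox6 and Crxos, was at no more than 4.71 CPM in any group. The other Obox symbol counted in both tables, the pseudogene Obox4-ps35, was at 0.844 CPM at 12-18hpi, 20.3 at 18-24hpi and 28.5 at 24-30hpi. It shared its peak window with Obox3 and was at 10.0 CPM at 30-36hpi.

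Other paired-like homeobox genes, a list of 25 of which 20 were tested, moved both ways. From 12-18hpi to 18-24hpi 9 rose and 2 fell, where 18.1% of all genes rose and 14.9% fell. Hesx1, a transcriptional repressor active in the developing forebrain and pituitary, rose from 0.911 ± 0.605 to 18.6 ± 1.15 CPM. Nobox, a regulator of oocyte genes, fell from 346 ± 15.2 to 129 ± 18.3 CPM. From 6-12hpi to 12-18hpi 4 rose and 0 fell, where 7.11% of all genes rose and 6.09% fell, among them Duxf3, an activator of 2-cell genes (1.16 ± 0.564 to 12.2 ± 2.74 CPM). The list's median log2 change was 1.65 in the step to 18-24hpi, against 0 over all genes. In that same step 21 of 26 tested genes of a list of 2-cell-stage genes rose and 2 fell, with a median of 3.05, and 10 of 23 genes of the oocyte and maternal effects fell and 0 rose, with a median of -0.77. In the following step 12 of those 23 fell and 0 rose, where 24.4% of all genes fell and 21% rose.

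The genotype libraries compare Obox RNA between ctrl and the Klf17 labels KO, mKO and pKO. Between KO and ctrl 2 of 7 members fell and 0 rose, where 8.13% of the 16694 genes tested were called (1.82% up and 6.31% down). Obox6 measured 790, 812 and 1307 CPM in ctrl and 279, 334 and 340 CPM in KO (log2 change -1.61, SE 0.31, adjusted p = 0.0108). Obox8 measured 213, 225 and 347 CPM in ctrl and 49.4, 61.2 and 71.3 CPM in KO (log2 change -2.11, SE 0.36, adjusted p = 0.00663). Every KO library lay below every ctrl library for both genes. Both calls were lost without KO replicate 2, at adjusted p of 0.0648 for Obox6 and 0.0608 for Obox8, with log2 changes of -1.63 and -2.08.

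Obox3, the third gene with RNA mainly in the embryo, did not differ detectably, with 37.1, 46.5 and 47.8 CPM in ctrl and 32.2, 39.7 and 48.6 CPM in KO (log2 change -0.13, SE 0.34, adjusted p = 0.853). Its ranges overlapped.

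The genes with RNA in the oocyte had higher values in KO but were not called. Obox7 measured 14.1, 15.6 and 22.4 CPM in ctrl and 23.1, 53.2 and 63.0 CPM in KO (log2 change 1.42, SE 0.48, adjusted p = 0.0725). Obox1 measured 44.8, 62.0 and 83.7 CPM in ctrl and 90.6, 126 and 159 CPM in KO (log2 change 0.98, SE 0.38, adjusted p = 0.113). Obox1 and Obox7 had no overlap between the groups. Obox2 (40.7, 41.2 and 61.9 CPM in ctrl, 59.2, 88.4 and 115 in KO) had a log2 change of 0.87 (SE 0.33, adjusted p = 0.112) and Obox5 (136, 153 and 269 CPM in ctrl, 211, 238 and 362 in KO) of 0.54 (SE 0.38, adjusted p = 0.393). Their ranges overlapped. With DESeq2 4 members were called, Obox2 and Obox7 up and Obox6 and Obox8 down. Over all genes DESeq2 called 2698 in this comparison and edgeR 1358. The summed oocyte markers were at 1370 to 1940 CPM in ctrl and 2520 to 2930 CPM in KO. None of the 5 was at 0, with 1 of them called up (Bmp15) and 1 down (Zp3). Much of this sum was Bmp15, which averaged 1100 CPM in ctrl and 2240 in KO, while Zp3 averaged 96.5 and 39.4. The other 3 were not called, and the median log2 change of the 5 was 0.31. The summed cumulus markers were at 59.3 to 81.4 CPM in ctrl and 19.2 to 39.7 in KO, with 1 of the 7 at 0 in each. The part of either list in these values was not tested. Summed, Obox1, Obox2, Obox5 and Obox7 averaged 315 CPM in ctrl and 530 in KO. In the windows, scaled separately, they averaged 803 at 24-30hpi and 166 at 30-36hpi. Obox3, Obox6 and Obox8 together averaged 1275 CPM in ctrl and 418 in KO, and 453 and 1026 in those windows. A difference in embryo timing between ctrl and KO was not tested.

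**Figure D3:**
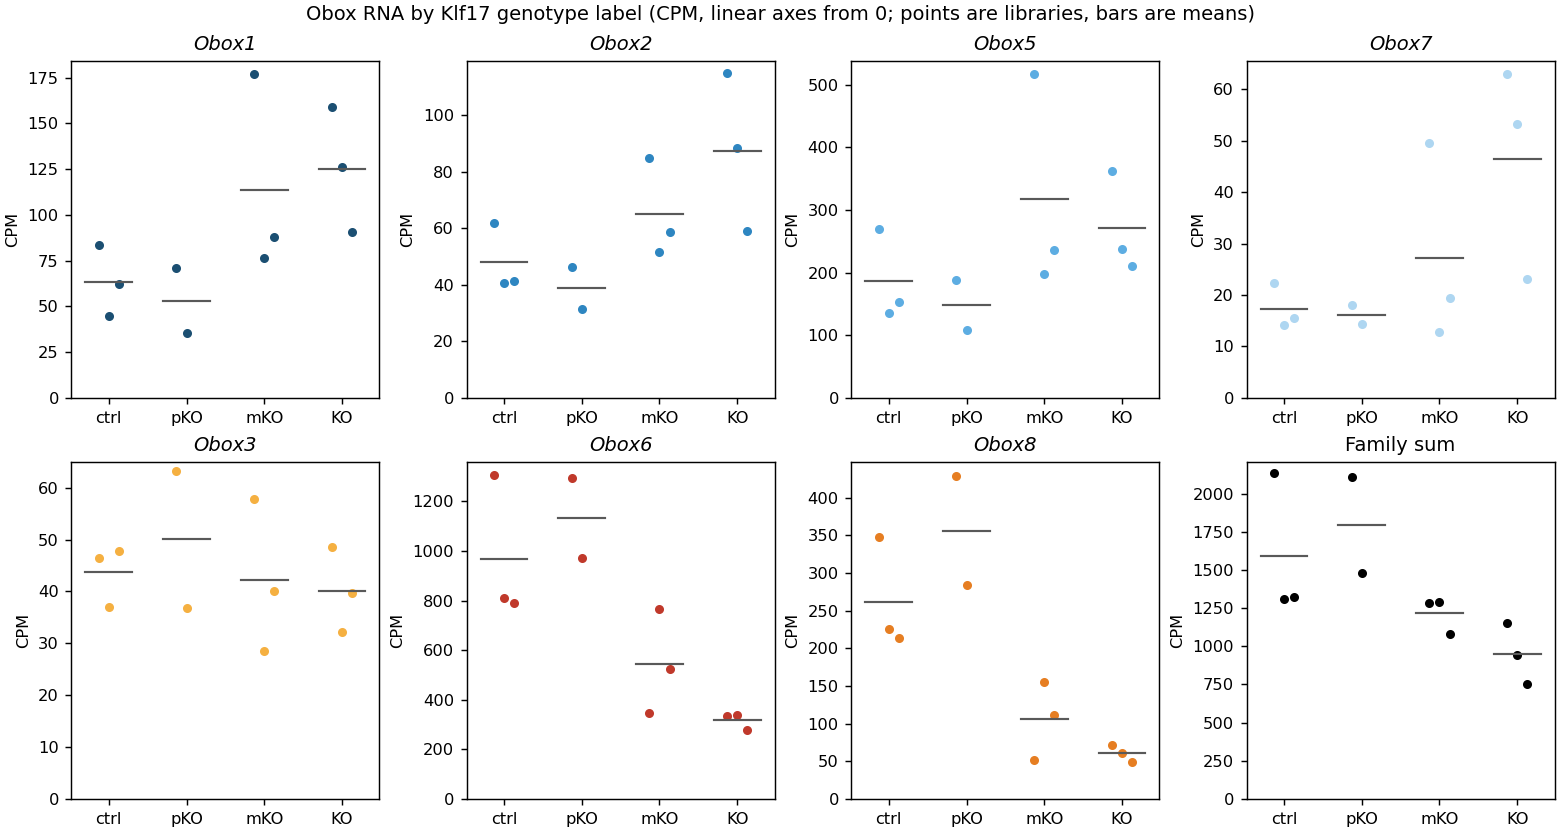
Level of each Obox gene and of their sum by Klf17 genotype label. Horizontal axes give the group, vertical axes CPM on linear scales from 0; points are libraries (3 for ctrl, mKO and KO, 2 for pKO) and bars their means. Obox6 and Obox8 are lower in all KO libraries (at most 340 and 71.3 CPM) than in all ctrl libraries (at least 790 and 213 CPM), and in mKO replicate 1 they stand at 346 and 52.0 CPM.

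In the mKO libraries 0 of 7 members were called against ctrl by edgeR, 3 had an unadjusted p below 0.05 and 0 were called by DESeq2. In this comparison 0% of all genes were called, 1243 had an unadjusted p below 0.05 and DESeq2 called 58. Obox6 measured 346, 526 and 765 CPM in mKO, all under the ctrl libraries (log2 change -0.83, SE 0.31, adjusted p = 0.63). Obox8 measured 52.0, 112 and 155 CPM, also all under ctrl (log2 change -1.30, SE 0.36, adjusted p = 0.616). In both genes mKO replicate 1 was lowest, at or near the KO values, and it was the highest mKO library for Obox1 (177 against 76.6 and 88.0 CPM) and Obox5 (517 against 197 and 236 CPM). This library correlated with the other mKO libraries at r = 0.875 and 0.897 across genes, and replicates 2 and 3 with each other at 0.915.

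Against mKO, 0 of 7 members were called in KO (2 at an unadjusted p below 0.05, 0 with DESeq2). Of all genes 0% were called, 2220 had an unadjusted p below 0.05 and DESeq2 called 405. The KO libraries lay under all mKO libraries for Obox6 (log2 change -0.78, SE 0.31, adjusted p = 0.294) and overlapped them for Obox8 (log2 change -0.81, SE 0.35, adjusted p = 0.343). Without mKO replicate 1 both were called lower in KO, with log2 changes of -1.04 (adjusted p = 0.0322) and -1.16 (adjusted p = 0.0271). Without mKO replicate 2 Obox8 was called lower in mKO than in ctrl (log2 change -1.67, adjusted p = 0.0453).

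The pKO libraries, of which there were 2, overlapped ctrl, with 972 and 1294 CPM of Obox6 and 284 and 428 CPM of Obox8. None of the 7 members was called against ctrl, 0 had an unadjusted p below 0.05 and 0 were called with DESeq2. Of all genes 0% were called, 476 had an unadjusted p below 0.05 and DESeq2 called 3. The ranges overlapped for all 7 members. The log2 changes of the 7 members ran from -0.33 (Obox5, SE 0.43) to 0.44 (Obox8, SE 0.39). Differences well above these errors may also have been missed. In the same fit, -1.30 (SE 0.36) for Obox8 between mKO and ctrl was not called.

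Between KO and pKO 2 of 7 members fell and 0 rose, where 12.5% of all genes were called (2.83% up and 9.67% down). Obox6 was lower in KO by a log2 change of -1.83 (SE 0.34, adjusted p = 0.00483) and Obox8 by -2.55 (SE 0.39, adjusted p = 0.00364). Obox2 was higher in KO at 59.2, 88.4 and 115 CPM against 31.3 and 46.3 (log2 change 1.18, SE 0.39), at an adjusted p of 0.0537. Obox7 (log2 change 1.51, adjusted p = 0.0773), Obox1 (1.24, adjusted p = 0.07) and Obox5 (0.86, adjusted p = 0.191) also had higher values in every KO library than in either pKO library, without a call. Obox1 and Obox2 were called higher in KO with total count scaling (adjusted p = 0.0416 and 0.0351), and Obox1, Obox2 and Obox7 with DESeq2 (adjusted p = 0.0237, 0.0113 and 0.0244). Over all genes DESeq2 called 3654 in this comparison and edgeR 2087. This comparison shares the KO libraries with the one against ctrl. Between mKO and pKO 0 members were called by edgeR, 4 had an unadjusted p below 0.05 and 1 was called by DESeq2. Of all genes 0% were called, 1919 had an unadjusted p below 0.05 and DESeq2 called 164. The log2 changes were -1.05 for Obox6 and -1.74 for Obox8, with no overlap for either.

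The member sum was 1310, 1323 and 2137 CPM in ctrl, 751, 940 and 1153 CPM in KO, 1080, 1285 and 1287 CPM in mKO and 1483 and 2109 CPM in pKO. KO and ctrl did not overlap, and ctrl replicate 1 was highest in its group. Per kilobase, Obox3, Obox6 and Obox8 made up 82.9%, 83.2% and 85.2% of the family in ctrl and 43.8%, 50.8% and 53.6% in KO. The share was 40.0%, 67.7% and 77.9% in mKO and 87.5% and 89.6% in pKO, so every KO library and every mKO library lay under every ctrl library, and both pKO libraries above.

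**Figure D4:**
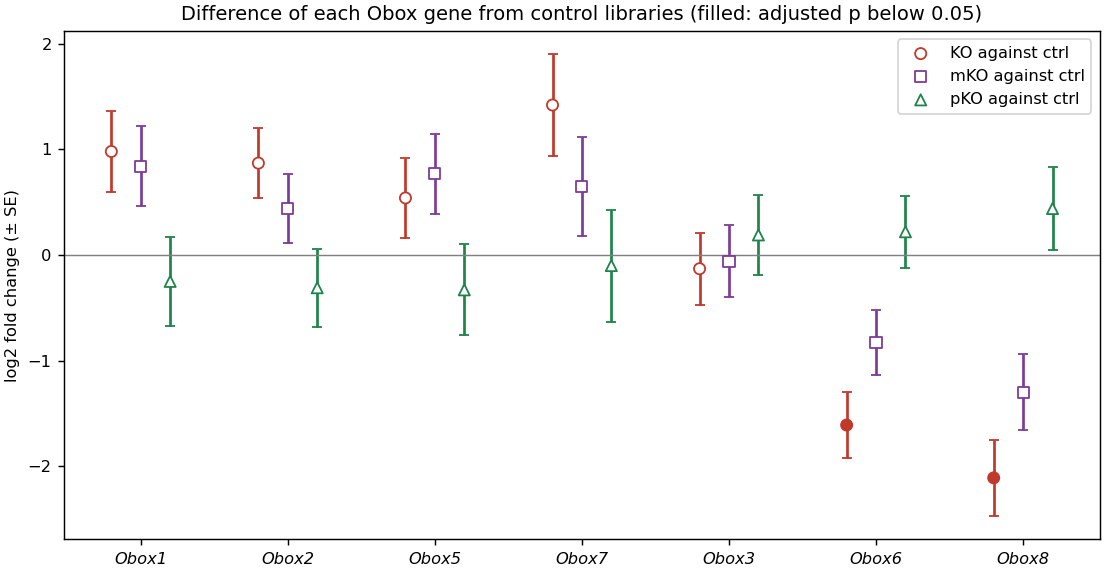
Log2 change (log2 of the fold) of each Obox gene against ctrl in the libraries labelled KO (circles), mKO (squares) and pKO (triangles), with bars of 1 SE; filled symbols mark an adjusted p below 0.05. The 3 comparisons share the ctrl libraries. Only Obox6 (-1.61) and Obox8 (-2.11) in KO are filled.

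Among the lists in the KO comparison with ctrl, 2 of 16 tested paired-like homeobox genes rose and 0 fell (median log2 change 0.85, against 0.05 over all genes, of which 1.82% rose and 6.31% fell). These were Esx1, an X-linked gene (10.6 ± 2.93 to 41.8 ± 21 CPM, adjusted p = 0.0329), and Dmbx1 (6.75 ± 1.62 to 20.1 ± 5.25 CPM, adjusted p = 0.0373). Crxos, the neighbour of Obox6, was at 368 ± 98.1 CPM in ctrl and 182 ± 52.2 in KO, at an adjusted p of 0.0537. Of 26 tested 2-cell-stage genes 0 rose and 5 fell (median 0.21), among them Dppa2, a chromatin factor that activates 2-cell genes (717 ± 251 to 214 ± 29.7 CPM, adjusted p = 0.0114), and Sp110 (292 ± 53.2 to 89.9 ± 9.65 CPM, adjusted p = 0.00663). Of the 23 genes of the oocyte list 1 rose, Bmp15, an oocyte growth factor, and 1 fell, Zp3, a zona pellucida protein (median 0.31).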

How the data were processed

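Members were taken by symbol. The members, the gene lists and the tests were chosen with earlier results of these data known. The deposited tables hold read counts per gene, per the file headers; 1 damaged record (Nyx) holds a fraction, so the deposited 90-96hpi replicate 3 column was handled in the unit of estimated counts, that record was left out and the values were rounded. Per the submitters' processing notes, the build was mm10 (GRCm38) and the tools included STAR 2.7.10a, Trim Galore 0.6.10 and SAMtools 1.12; which tool counted reads, the strand and any parting by T-to-C conversions are not given in the sources used here. Gene positions come from the deposited embryo-number table, which is held in part; its last, incomplete record was left out.

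Each table was fitted whole with edgeR 4.0.16 (R 4.3.3), after filterByExpr set to 10 counts and 15 in all, with TMM scaling and the robust quasi-likelihood F-test (two-sided, Benjamini-Hochberg adjusted p below 0.05), with all groups in 1 fit and no block. The SE is the size of the log2 fold change divided by the square root of F. CPM per kb divides by the gene length in the same deposited table. Likeness is Pearson's r of log2(CPM + 1) over the group means, and the 3 most alike genes outside the family are named; up to 3 genes per list with the smallest adjusted p were eligible for naming. The labels do not say if replicates are separate collections, and p-values then rest only on how these libraries vary, which may be technical. Alternatives were DESeq2 1.42.0, edgeR with DESeq2's size factors or with library totals, all genes unfiltered, a replicate block, fits of only the 2 groups, and each library left out in turn. The test was tested on simulated data. Summaries used Python 3.11.15, pandas 2.3.3, numpy 2.4.6 and matplotlib 3.10.9. The 14 chromatin accessibility samples were not used.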

Additional observations from a re-analysis of the deposited data

Results flagged for a closer look

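A further table compares 10, 40 and 100 embryos per library, 2 libraries each, at a stage the labels do not name; it entered no comparison, and members with more than 3 reads there were picked out. Obox6 had reads in all 6 libraries: 253 and 295 with 10 embryos, 360 and 224 with 40, and 476 and 457 with 100. Obox6 made up 85.3% to 99.6% of the members' reads. Obox8 had 82 and 27 reads in the 100-embryo libraries and 0 in the other 4. Obox5 had 16 reads in replicate 1 of the 40-embryo libraries and Obox2 6 in replicate 2 of the 100-embryo libraries. Obox1, Obox3 and Obox7 stayed at or under 3 reads in all 6.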

How the results depend on the processing

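Of 119 pairs of a member and a comparison 44 were called, and 36 kept their direction and call under every setting run: 25 of 30 over the 9 steps, 9 of 10 over the 2 spans and 2 of 4 between genotypes. Calls over the 9 steps came to 29 with total count scaling, 31 when scaled by DESeq2's size factors, 38 without the low-count filter, 33 with DESeq2, 39 in fits of only the 2 groups and 28 to 31 with 1 library left out; over the spans they came to 9 to 11. Under total count scaling the summed family's log2 fold was -0.51 from MII to 0-6hpi, -0.85 from 18-24hpi to 24-30hpi, 0.18 from 30-36hpi to 48-54hpi and -0.84 from 12-18hpi to 30-36hpi, against -0.67, -1.26, 0.66 and -1.40 with TMM; that scaling moved the median of all genes from -0.19 to -0.665 in the third of these and from -0.117 to 0.277 in the second. The same 2 genes, Obox6 and Obox8, were called lower in KO than in ctrl and pKO under each scaling, filter, tool and block, and the added calls were all of higher values in KO. KO against ctrl gave 4 calls without the low-count filter (Obox1 and Obox7 added), 4 with DESeq2 (Obox2 and Obox7 added), 5 in a fit of only the 2 groups (Obox1, Obox2 and Obox7 added) and 0 to 2 with 1 library left out. KO against pKO gave 4 with total count scaling (Obox1 and Obox2 added), 5 without the low-count filter, 5 with DESeq2 and 5 in a fit of the 2 groups (Obox7 added as well in these), and 2 to 3 with 1 library left out. For mKO against pKO it was 1 without the filter, 1 with DESeq2 and 0 to 2 with 1 library left out, for KO against mKO 0 to 2 and for mKO against ctrl 0 to 1. For Obox7, mKO against ctrl turned from a log2 fold change of 0.65 to -0.04 without mKO replicate 1, and reached 0.99 without mKO replicate 2. The cause of these changes was not tested. Calls over all genes were counted only in the edgeR fit of all groups with TMM scaling and with DESeq2. Whether the other settings, the replicate block included, called more genes in general was not tested. Another 39 pairs were smaller than their SE, and of these 24 changed sign under a setting, with 0 calls under a changed sign. Under some setting 6 of the 39 were called.

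The labels do not say what a replicate number shares. Deviations of same-numbered libraries correlated unevenly, from -0.11 to 0.18 for KO and ctrl, 0 to 0.36 for mKO and ctrl and 0.05 to 0.48 for 70-76hpi and 90-96hpi, and, over 2 pairs each, at 0.41 for pKO and ctrl, 0.47 to 0.5 for mKO and pKO and -0.12 to 0.11 for KO and pKO. Same-numbered libraries were not taken as pairs in the fit used above, since the labels state no block. Structure shared by same-numbered libraries may remain in the comparisons with the higher values. With a replicate block the calls were 31 over the 9 steps, 4 for KO against ctrl, where Obox1 (adjusted p = 0.0271) and Obox7 (adjusted p = 0.0316) were called higher in KO, and 6 for KO against pKO, where Obox1, Obox2, Obox5 and Obox7 were. Counts under about 10 reads, as for Obox3, Obox7 and Obox8 in the early or last windows, limit what could be seen.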
